A study of Homo sapiens with 12 samples.

Results

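The CXCR3 ligands CXCL9, CXCL10 and CXCL11 and the other chemokines that draw T cells or monocytes, CX3CL1, CXCL16, CCL2, CCL5, CCL22 and CCL28, were followed in HT1376 bladder cancer cells with FOXP3 intact or targeted by CRISPR and with or without IFNγ. They were chosen by gene symbol and are 9 of the 60666 genes in the count table. Each of the 9 had at least 1 count.

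Chemokines are small proteins that guide leukocytes along concentration gradients by way of G protein-coupled receptors. CXCL9, CXCL10 and CXCL11 share the receptor CXCR3, which is carried by activated T cells and natural killer cells, and they are known as the IFNγ-induced chemokines because factors such as IRF1 act on their promoters after IFNγ binds its receptor. In tumors, including bladder cancer, their expression is commonly read as a sign of an interferon response and of T-cell recruitment.

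HT1376 is a human bladder carcinoma line. HT1376 CT is a CRISPR control made with a guide RNA against luciferase, a gene that human cells lack, and the labels call it wild type. HT1376 FOXP3 KO was made with guide RNAs against exon 2 of FOXP3, which encodes a forkhead transcription factor. Both lines are described as clonal, grown from single cells, and the number of clones behind the libraries of each genotype is not stated. Loss of FOXP3 and other differences between the clones cannot be told apart. Cells of both lines were left untreated or given IFNγ at 100 ng/mL over 48 hours, which makes 4 groups, and each group has 3 libraries that carry the replicate numbers 11, 12 and 13. The labels do not say that the 3 libraries of a group came from separate cultures, so p-values measure only the spread between these libraries. The comparisons ask what IFNγ did to these chemokines in each line, and whether their levels and their responses differed between the lines.

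The libraries held 4490684 to 39270042 counts, with a median of 15551202. The shallowest was HT1376 CT with IFNγ, replicate 12. FOXP3 itself had at most 3 counts in any library and 0 in 8 of 12, so its counts could not check the labels. Summed over 7 epithelial markers, the level was 3822 to 4970 CPM (counts scaled by TMM library size) over all 12 libraries. Among them, EPCAM and CDH1 were lower and KRT7 higher in HT1376 FOXP3 KO than in HT1376 CT, both untreated and under IFNγ. The 7 urothelial markers summed to 574 to 853 CPM over all 12 libraries, and among them UPK3A was at or under 3 counts in every library. PPARG was higher in HT1376 FOXP3 KO than in HT1376 CT in both conditions. Untreated, TP63 was also higher there, and GATA3 and UPK1B were lower. The 10 leukocyte markers summed to 4.74 to 8.72 CPM in the HT1376 CT libraries and to 77.2 to 233 CPM in the HT1376 FOXP3 KO libraries. Without CSF1R, which alone reached 74.8 to 232 CPM in HT1376 FOXP3 KO, the sums were 3.39 to 7.43 and 1.32 to 3.41 CPM, and CD3E, CD4, CD8A, CD68 and LYZ were at or under 3 counts in every HT1376 FOXP3 KO library. The 5 fibroblast markers summed to 24.5 to 63.2 CPM in HT1376 CT and 442 to 703 CPM in HT1376 FOXP3 KO, with COL1A2, DCN, LUM and PDGFRB higher and COL1A1 lower both untreated and under IFNγ. These marker differences accompany every comparison between the lines below, and their part in the chemokine results was not tested.

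The genes of CXCL9, CXCL10 and CXCL11 lie together on the minus strand of chromosome 4 within 40.141 kb (GRCh38). CXCL9 spans chr4:76001275-76007509, CXCL10 chr4:76021118-76023497 and CXCL11 chr4:76033682-76041415. CCL22 (chr16:57358783-57366189) and CX3CL1 (chr16:57372477-57385044) are neighbors on the plus strand of chromosome 16, 6287 bases apart. CXCL16 (chr17:4733533-4739928), CCL2 (chr17:34255274-34257208) and CCL5 (chr17:35871491-35880793) lie on chromosome 17, and CCL28 (chr5:43376645-43412391) on chromosome 5.

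RefSeq windows of 250 bases before to 50 bases after the transcript start (GRCh38.p14) were found for 5 of the 9 genes, CXCL9, CXCL10, CXCL11, CCL22 and CCL28, with 2 start sites for CCL28. The CXCL11 window, chr4:76036021-76036320, lies inside the span of that gene given above. Its matches are therefore counted from a start within that span. They were searched on both strands for 4 motifs, namely the IFNγ-activated element GAS (TTCNNNGAA), a short form of the interferon-stimulated response element ISRE (GAAANNGAA), the NF-κB consensus and a forkhead motif, which was ATAAACA or otherwise ACAAACA, or with G as the first letter GTAAACA or otherwise GCAAACA. Over 35116 windows of the same length, 7.66% held the GAS motif, 8.11% the ISRE motif, 5.91% the NF-κB motif and 15.1% a forkhead motif. All 3 CXCR3 ligands held an ISRE or a GAS match, and CXCL10, CXCL11 and CCL22 held an NF-κB match. No forkhead match was present in the 6 windows, and neither CCL28 window held any of the 4 motifs. CX3CL1, CXCL16, CCL2 and CCL5 had no window and were not searched, and a link between the motifs and the IFNγ responses was not tested. The matches within the 250 bases before each start are printed 5′ to 3′ on the strand of the gene, with the matched letters in capitals.
CXCL9 ISRE, chr4:76007662-76007691, minus strand: cccatttatgtGAAATGGAAataaaaacat
CXCL10 ISRE, chr4:76023700-76023729, minus strand: ttcatgttttgGAAAGTGAAacctaattca
CXCL10 NF-κB, chr4:76023655-76023684, minus strand: gaggagcagaGGGAAATTCCgtaacttgga
CXCL10 NF-κB, chr4:76023600-76023629, minus strand: tctgcaacatGGGACTTCCCcaggaacagc
CXCL11 GAS, chr4:76036291-76036320, minus strand: ttaaatggatTTCTAGGAAaagctacctta
CXCL11 NF-κB, chr4:76036127-76036156, minus strand: gactcaaagaGGGAAATTCCtgtgccataa
CCL22 NF-κB, chr16:57358588-57358617, plus strand: agagttgaggGGGGGTCCCCtctgagtggt
The ISRE matches began at -171 in CXCL9 and at -221 in CXCL10, counted from the transcript start. The nearer NF-κB match of CXCL10 began at -122 and that of CXCL11 at -76. CXCL11 held another GAS match from +19 to +27, and no match overlapped another. A match of letters is not a measurement of binding.

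**Figure D1:**
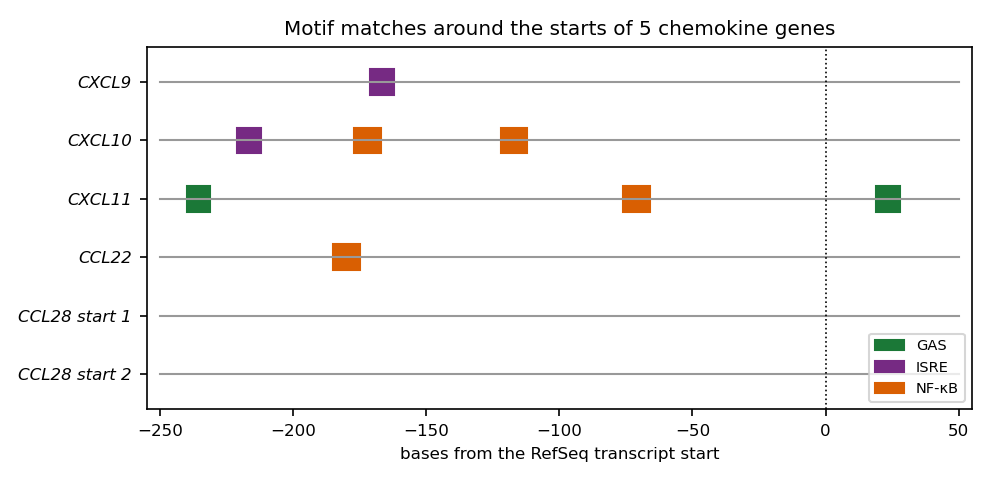
Positions of motif matches (colored boxes) in 6 RefSeq windows, from 250 bases before to 50 bases after the transcript start (dotted line), for CXCL9, CXCL10, CXCL11, CCL22 and the 2 starts of CCL28. The windows of the 3 CXCR3 ligands hold an ISRE or GAS match, and the CCL28 windows hold none.

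IFNγ raised CXCL9, CXCL10 and CXCL11 in both lines. In HT1376 CT, CXCL9 went from 0 counts in each untreated library to between 5.32 and 20.8 CPM, and CXCL10 and CXCL11 rose 212-fold and 62.5-fold in the fitted model. The fitted log2 rises of these 2 genes were 7.73 and 5.97 there and 4.78 and 3.32 in HT1376 FOXP3 KO. Under IFNγ the 3 ligands were 3.93-fold to 5.68-fold lower in HT1376 FOXP3 KO than in HT1376 CT.

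Of the 9 chemokines, 5 were higher with IFNγ in HT1376 CT by the quasi-likelihood test of edgeR (Benjamini-Hochberg adjusted p under 0.05), namely CXCL9, CXCL10, CXCL11, CX3CL1 and CCL5, where 5.35% of the 24416 genes tested were called, 3.53% higher and 1.82% lower. Of the 8 that could be tested in HT1376 FOXP3 KO, 4 were higher, CXCL9, CXCL10, CXCL11 and CX3CL1, where 0.982% of 24131 genes were called, 0.978% higher and 0.00414% lower. No member was lower with IFNγ in either line. The median log2 fold change was 3.45 over the 9 in HT1376 CT and 3.82 over the 8 in HT1376 FOXP3 KO, beside -0.019 and -0.0055 over all genes tested. CCL2 was not tested in HT1376 FOXP3 KO, so these medians cover unlike sets of genes and do not compare the lines. With the 2 genes that had 0 counts in untreated HT1376 CT set to their lower bounds, the median in HT1376 CT was 3.07. IFNγ and untreated libraries did not overlap for 6 of the 9 in HT1376 CT, and for all 8 tested in HT1376 FOXP3 KO, each time higher. Of all genes tested, 10.3% were higher and 13.7% lower without overlap in HT1376 CT, and 6.11% and 4.57% in HT1376 FOXP3 KO. Libraries with the same replicate number deviated together within a line. With that number as a block, 7 chemokines in HT1376 CT and all 8 in HT1376 FOXP3 KO passed the threshold, beside 18.6% and 5.53% of all genes tested. In these block fits the spread was in effect shared over genes, so their p-values hardly reflect the spread of the chemokine itself.

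**Figure D2:**
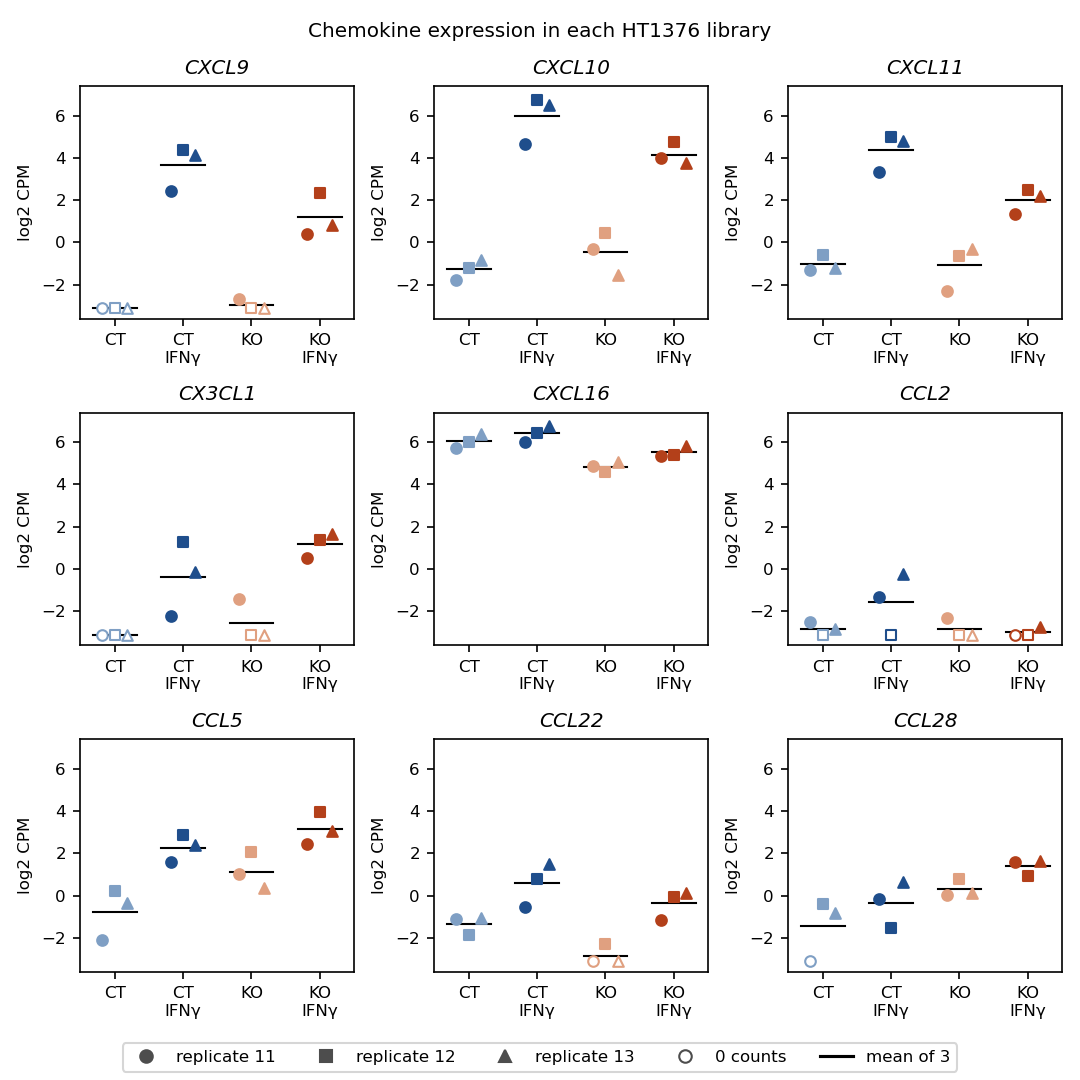
Expression of the 9 chemokines in each of the 12 libraries, as log2 CPM with a prior count of 2, by group (CT, HT1376 CT; KO, HT1376 FOXP3 KO). Symbols give the replicate number, open symbols are libraries with 0 counts and bars are the means of 3 libraries. CXCL9, CXCL10 and CXCL11 are low untreated and higher with IFNγ in both lines, and CXCL16 lies above the other chemokines in the untreated groups.

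CXCL9, a chemokine that depends strongly on IFNγ, had 0 counts in the 3 untreated HT1376 CT libraries and 5.32, 20.8 and 17.5 CPM in HT1376 CT with IFNγ (replicates 11, 12 and 13). It had 0.0428, 0 and 0 CPM in untreated HT1376 FOXP3 KO and 1.20, 5.02 and 1.66 CPM with IFNγ. The treated libraries lay above the untreated ones in both lines, and each treated HT1376 FOXP3 KO library lay below each treated HT1376 CT library. A count of 0 allows up to 3 counts per untreated library, and against that limit the rise in HT1376 CT was at least 88.4-fold (adjusted p = 0.000121). In HT1376 FOXP3 KO the only untreated count was 1, and the ratio of pooled counts was 110, with an exact 95% binomial interval of 19.3 to 4363 that covers counting error only (adjusted p = 0.0121). That call was lost without replicate 11 or replicate 13 of untreated HT1376 FOXP3 KO (adjusted p = 0.115 and 0.0911) and with the bias-adjusted deviance (0.0534).

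CXCL10, which attracts activated T cells, had the largest counts of the 3 ligands under IFNγ. It was at 0.176, 0.318 and 0.449 CPM in HT1376 CT and at 25.0, 108 and 90.4 CPM in HT1376 CT with IFNγ. It was at 0.685, 1.25 and 0.230 CPM in untreated HT1376 FOXP3 KO and at 15.6, 26.6 and 13.3 CPM with IFNγ. Treated and untreated libraries were far apart in both lines, and among treated libraries the lowest of HT1376 CT, replicate 11, fell just below the highest of HT1376 FOXP3 KO, replicate 12. The log2 fold change with IFNγ was 7.73 ± 0.60 (SE, adjusted p = 9.83e-06) in HT1376 CT and 4.78 ± 0.49 (adjusted p = 0.000839) in HT1376 FOXP3 KO.

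CXCL11, which binds CXCR3 and the atypical receptor ACKR3, was at 0.293, 0.556 and 0.317 CPM in HT1376 CT and rose to 9.97, 31.4 and 27.5 CPM with IFNγ. Its level in HT1376 FOXP3 KO was 0.0857, 0.535 and 0.691 CPM untreated and 2.41, 5.55 and 4.44 CPM with IFNγ. Here too the treated libraries of each line lay above its untreated ones, and the treated libraries of the 2 lines did not overlap. The log2 fold change was 5.97 ± 0.49 (SE, adjusted p = 1.46e-05) in HT1376 CT and 3.32 ± 0.61 (adjusted p = 0.0407) in HT1376 FOXP3 KO. The second call was lost on leaving out any 1 of the 6 libraries (adjusted p = 0.0716 to 0.187) and with at least 10 counts in 3 libraries (0.0594). With the replicate block its adjusted p was 8.71e-16, and 2.51e-05 when the bias-adjusted deviance was added. The first of these rests on a spread shared over genes and hardly on that of CXCL11.

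**Figure D3:**
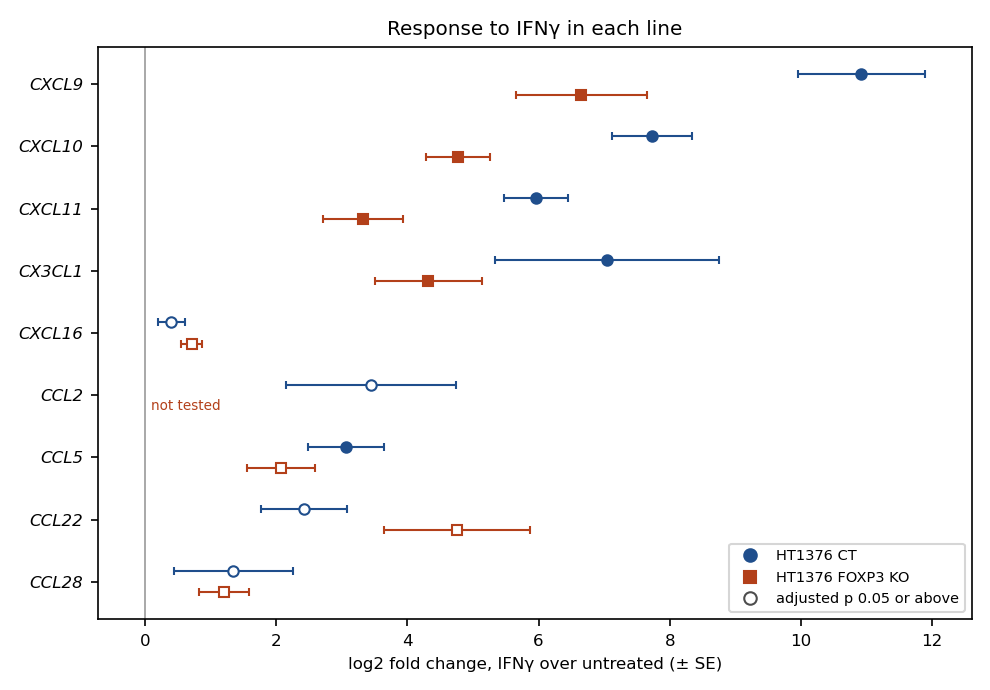
Fitted log2 fold change with IFNγ (± SE) for each chemokine in HT1376 CT (circles) and HT1376 FOXP3 KO (squares), from 3 treated against 3 untreated libraries each. Filled symbols have an adjusted p under 0.05. For CXCL9 and CX3CL1 in HT1376 CT all untreated libraries were at 0 counts, so that the plotted value depends on the model and the text gives lower bounds.

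In the comparison of the lines under IFNγ, 4 of the 9 chemokines were lower in HT1376 FOXP3 KO, CXCL9, CXCL10, CXCL11 and CXCL16, and CCL28 was higher. Of 24388 genes tested, 28.9% differed, with 15.7% lower and 13.2% higher, and the median log2 fold change was -1.14 over the 9 chemokines and 0.020 over all genes. The libraries of the lines did not overlap for 1 chemokine that was higher and 3 that were lower, beside 20.9% and 22.6% of all genes. For the CXCR3 ligands, the log2 differences were -2.50 ± 0.58 for CXCL9 (SE, adjusted p = 0.00757), -1.98 ± 0.45 for CXCL10 (adjusted p = 0.00708) and -2.44 ± 0.42 for CXCL11 (adjusted p = 0.00127). These are 5.68-fold, 3.93-fold and 5.42-fold lower levels. The 3 calls held on leaving out each library in turn. In bulk RNA, fewer cells that express a chemokine and less of its RNA per cell cannot be told apart.

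Without IFNγ, 6 of the 9 chemokines had enough counts to compare the lines, and 2 differed, CXCL16 lower and CCL5 higher in HT1376 FOXP3 KO, where 32.1% of 25320 genes differed, 14% higher and 18.2% lower. The untreated lines did not overlap for 2 chemokines that were higher and 2 that were lower, beside 20.7% and 25.7% of all genes. The median log2 fold change was 0.64 over the 6 chemokines and -0.021 over all genes. CXCL10 and CXCL11 overlapped between the untreated lines, with log2 differences of 1.10 ± 0.72 (SE, adjusted p = 0.277) and 0.17 ± 0.80 (adjusted p = 0.895). CXCL9 had at most 1 count in any untreated library and was not tested.

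**Figure D4:**
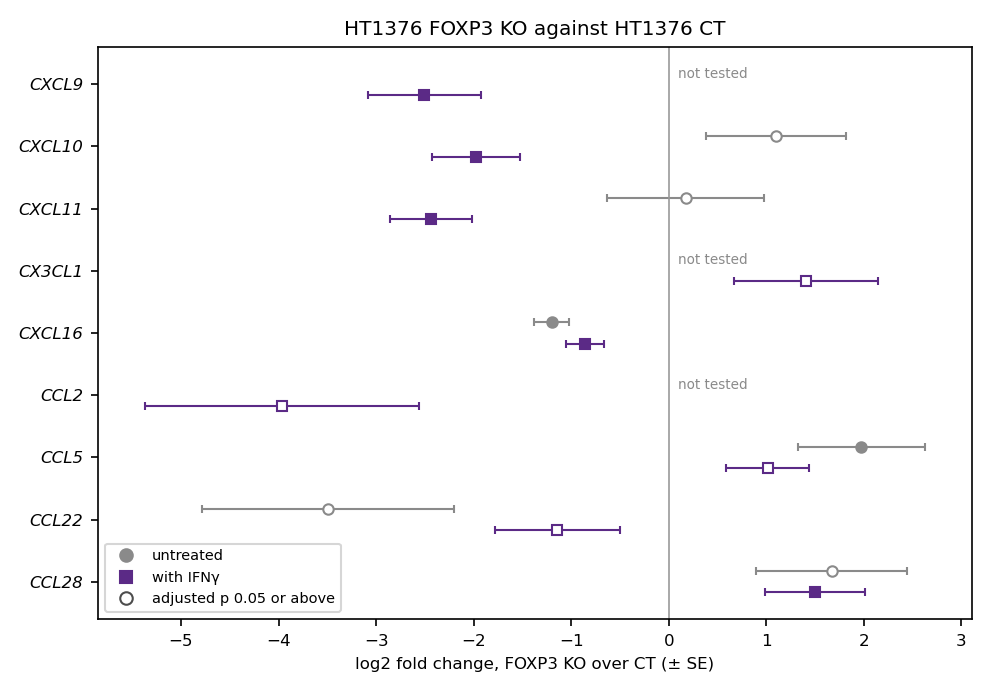
Fitted log2 fold change (± SE) of HT1376 FOXP3 KO over HT1376 CT for each chemokine, untreated (circles) and with IFNγ (squares), 3 libraries against 3. Filled symbols have an adjusted p under 0.05. The 3 CXCR3 ligands lie left of 0 with IFNγ, CXCL16 lies left of 0 in both conditions, and CCL5 and CCL28 lie right of 0 in both.

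An interaction term in a fit of the 12 libraries asked if IFNγ acted differently in the 2 lines. By edgeR, 0 of the 9 chemokines passed, where 0.111% of 27806 genes did, 0.0036% higher and 0.108% lower, and 2 of the 9 had an unadjusted p under 0.05. The response of CXCL10 was smaller in HT1376 FOXP3 KO by a log2 difference of -2.96 ± 0.92 (SE, edgeR adjusted p = 0.516), and that of CXCL11 by -2.62 ± 0.87 (adjusted p = 0.608). DESeq2 called 0 of the 5 chemokines for which it gave an adjusted p, with 0.130 and 0.0777 for these 2 genes. With the replicate number as a block within each line, both passed (adjusted p = 1.11e-09 and 0.000127), and the other 7 did not, where 4.75% of all genes passed. These p-values too rest on a spread shared over genes. With the bias-adjusted deviance of edgeR added to the block, the adjusted p were 0.00187 and 0.0277, and 3.12% of all genes passed. Between libraries of the same number, CXCL10 rose 142-fold, 339-fold and 201-fold in HT1376 CT and 22.8-fold, 21.3-fold and 57.6-fold in HT1376 FOXP3 KO. CXCL11 rose 34.1-fold, 56.5-fold and 86.8-fold in HT1376 CT and 28.1-fold, 10.4-fold and 6.42-fold in HT1376 FOXP3 KO. For each of these 2 genes the 3 ratios of HT1376 CT exceeded the 3 of HT1376 FOXP3 KO.

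CX3CL1 and CXCL16 are made as transmembrane proteins that can hold leukocytes at the cell surface, and the proteases ADAM10 and ADAM17 release them as soluble chemokines. CX3CL1, the ligand of CX3CR1, had 0 counts in the 3 untreated HT1376 CT libraries and 0.0968, 2.31 and 0.782 CPM with IFNγ. Untreated HT1376 FOXP3 KO had 0.257, 0 and 0 CPM, and with IFNγ it had 1.34, 2.45 and 3.0003 CPM. Every treated library lay above the untreated libraries of its line, although the lowest treated HT1376 CT library rested on 1 count. Its 0.0968 CPM was below the limit for a count of 0 in untreated HT1376 CT, which averaged 0.164 CPM. The rise was at least 6.46-fold in HT1376 CT (adjusted p = 0.0459) and 4.32 ± 0.82 on the log2 scale in HT1376 FOXP3 KO (SE, adjusted p = 0.0468). In each line 5 of the 6 libraries ended the call when left out, with adjusted p of 0.0806 to 0.155 in HT1376 CT (all but replicate 11 with IFNγ) and 0.0829 to 0.293 in HT1376 FOXP3 KO (all but replicate 11 untreated). The calls held with the replicate block. They were lost with the bias-adjusted deviance in HT1376 CT (0.0608) and, in HT1376 FOXP3 KO, in 1 fit of all libraries (0.0775) and with at least 10 counts in 3 libraries (0.0618). Under IFNγ the lines overlapped, with a log2 difference of 1.41 ± 0.74 (adjusted p = 0.185) that passed without replicate 12 of HT1376 CT with IFNγ (2.25, adjusted p = 0.0407) and with the replicate block (0.0462).

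CXCL16, the ligand of CXCR6, was the chemokine with the highest level in untreated cells and differed between the lines in both conditions. It was at 53.6, 63.8 and 83.8 CPM in HT1376 CT and at 29.4, 23.6 and 33.5 CPM in HT1376 FOXP3 KO. With IFNγ it was at 64.3, 87.5 and 109.9 CPM in HT1376 CT and at 41.1, 42.4 and 57.0 CPM in HT1376 FOXP3 KO. The libraries of the lines did not overlap in either condition. CXCL16 was lower in HT1376 FOXP3 KO by a log2 difference of -1.20 ± 0.18 untreated (SE, adjusted p = 0.000443) and -0.86 ± 0.20 with IFNγ (adjusted p = 0.00740). Its change with IFNγ did not pass, at 0.40 ± 0.20 in HT1376 CT (adjusted p = 0.337) and 0.71 ± 0.16 in HT1376 FOXP3 KO (adjusted p = 0.111). Yet CXCL16 was higher with IFNγ in each of the 6 same-numbered pairs, by 1.20-fold to 1.79-fold. With the replicate block the change passed in both lines (adjusted p = 0.000132 and 1.48e-11, or 0.00503 and 6.71e-05 with the bias-adjusted deviance added). Exons of CXCL16 share 76 bases with MED11 and 96 bases with ZMYND15 on the other strand, and the strand setting of the counting is not named in the sources used here, so some reads in these bases could belong to either gene.

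CCL5, a ligand of CCR1, was the chemokine that was higher in untreated HT1376 FOXP3 KO. It was at 0.117, 1.03 and 0.661 CPM in HT1376 CT and at 1.93, 4.01 and 1.15 CPM in HT1376 FOXP3 KO, with no overlap. The log2 difference was 1.98 ± 0.65 (SE, adjusted p = 0.0396). That call was lost without replicate 11 or 13 of HT1376 CT or without replicate 11 or 12 of HT1376 FOXP3 KO (adjusted p = 0.0705 to 0.120). With IFNγ, CCL5 reached 2.90, 7.16 and 5.08 CPM in HT1376 CT and 5.28, 15.5 and 8.25 CPM in HT1376 FOXP3 KO. The treated libraries of the lines overlapped, and the difference of 1.01 ± 0.43 did not pass (adjusted p = 0.101). It passed without a filter on low counts (0.00519), with the replicate block (0.00659) and without replicate 11 of HT1376 FOXP3 KO with IFNγ (0.0473). The log2 rise of CCL5 with IFNγ was 3.07 ± 0.58 for HT1376 CT (adjusted p = 0.00865, and 0.0538 without treated replicate 13). The value was 2.08 ± 0.51 in HT1376 FOXP3 KO (adjusted p = 0.191). It passed with the replicate block (adjusted p = 1.11e-18, or 1.38e-05 with the bias-adjusted deviance added) and without untreated replicate 12 (0.0484).

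CCL2, which draws monocytes and T cells through CCR2, was barely detected. It had 1, 0 and 1 counts in HT1376 CT, 3, 0 and 13 counts in HT1376 CT with IFNγ, 2, 0 and 0 counts in HT1376 FOXP3 KO and 0, 0 and 1 counts in HT1376 FOXP3 KO with IFNγ. Most of its counts came from 1 library, HT1376 CT with IFNγ replicate 13. The ratio of pooled counts with IFNγ in HT1376 CT was 16.6 (exact 95% binomial interval 3.90 to 149), and the edgeR test did not pass (adjusted p = 0.180). Under IFNγ the pooled ratio of HT1376 FOXP3 KO over HT1376 CT was 0.0370 (0.000883 to 0.238), with an edgeR adjusted p of 0.0560, or 0.0339 without replicate 12 of HT1376 CT with IFNγ, 0.0268 with the bias-adjusted deviance and 0.0496 in 1 fit of all libraries.

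CCL22, a ligand of CCR4 that attracts regulatory T cells, was at 0.351, 0.159 and 0.370 CPM in HT1376 CT and at 0.581, 1.62 and 2.68 CPM with IFNγ. It had a single count over the 3 untreated HT1376 FOXP3 KO libraries and was at 0.334, 0.854 and 0.978 CPM with IFNγ there. In both lines the treated libraries lay above the untreated ones, yet neither change passed in the edgeR fit without a block. The log2 value was 2.43 ± 0.66 in HT1376 CT (SE, adjusted p = 0.0580, and 0.0184 without treated replicate 11), and the ratio of pooled counts was 40.6 in HT1376 FOXP3 KO (exact 95% binomial interval 6.91 to 1640, edgeR adjusted p = 0.152). Both passed with the replicate block (adjusted p = 0.00644 and 0.00399), without a filter on low counts (0.00654 and 0.0220) and with DESeq2 (0.0182 and 0.0385). Untreated, the pooled ratio of HT1376 FOXP3 KO over HT1376 CT was 0.0591 (0.00143 to 0.366, edgeR adjusted p = 0.0621). This passed without replicate 12 of HT1376 FOXP3 KO (0.0336), with the bias-adjusted deviance (0.0331) and in 1 fit of all libraries (0.0279). Under IFNγ the lines overlapped, with a log2 difference of -1.14 ± 0.64 (adjusted p = 0.216).

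CCL28, an epithelial chemokine that acts through CCR10 and CCR3, was at 0, 0.635 and 0.449 CPM in HT1376 CT and at 0.774, 0.231 and 1.45 CPM with IFNγ. Untreated HT1376 FOXP3 KO had 0.8995, 1.61 and 0.979 CPM, and 2.87, 1.81 and 3.03 CPM with IFNγ. The libraries of the lines did not overlap in either condition, with HT1376 FOXP3 KO above. The log2 difference was 1.499 ± 0.51 under IFNγ (SE, adjusted p = 0.0482) and 1.67 ± 0.77 untreated (adjusted p = 0.126). The call under IFNγ was lost without replicate 11 or 12 of HT1376 CT with IFNγ or without replicate 11 or 13 of HT1376 FOXP3 KO with IFNγ (adjusted p = 0.0773 to 0.136) and in 1 fit of all 12 libraries (0.107). The untreated difference passed without a filter on low counts (0.0429) and with the replicate block (0.0446). The change with IFNγ was 1.35 ± 0.90 in HT1376 CT (adjusted p = 0.500) and 1.21 ± 0.38 in HT1376 FOXP3 KO (adjusted p = 0.468, and 0.0129 with the replicate block).

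Per kilobase of exon, which allows levels of different genes to be compared, CXCL16 led in untreated cells, with 24.0 ± 5.51 CPM per kb in HT1376 CT (SD, n = 3) and 10.3 ± 1.78 CPM per kb in HT1376 FOXP3 KO, above each library of the other 8 chemokines. With IFNγ, CXCL10 led in HT1376 CT at 63.3 ± 37.2 CPM per kb, followed by CXCL16 at 31.2 ± 8.18, CXCL11 at 12.9 ± 6.41, CXCL9 at 5.26 ± 2.95 and CCL5 at 3.70 ± 1.56. CXCL10 and CXCL16 overlapped there, as did CXCL11 with CXCL9 and CXCL9 with CCL5. The order in HT1376 FOXP3 KO with IFNγ began with CXCL16 at 16.8 ± 3.17 CPM per kb, CXCL10 at 15.7 ± 6.04 and CCL5 at 7.09 ± 3.84, each overlapping the next, and CXCL11 at 2.32 ± 0.895 and CXCL9 at 0.952 ± 0.754 came below CCL5. In HT1376 CT with IFNγ CCL5 thus came after the 3 CXCR3 ligands, and in HT1376 FOXP3 KO with IFNγ before CXCL11 and CXCL9. In both treated groups CCL22, CCL28, CX3CL1 and CCL2 stayed under 1 CPM per kb in every library.

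**Figure D5:**
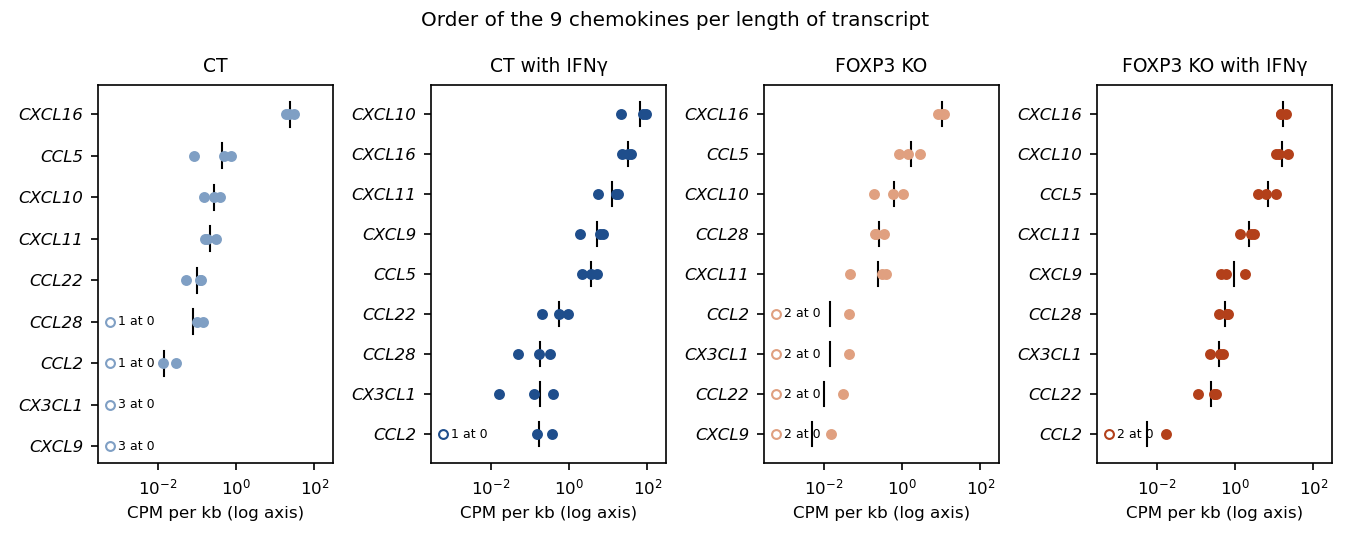
Level of each chemokine in CPM per kb of exon (log axis) in the 3 libraries of each group (points) with the mean (bar), ordered by the mean within each group. Libraries at 0 counts are drawn as 1 open point at the left with their number. CXCL16 leads in the untreated groups and in HT1376 FOXP3 KO with IFNγ, and CXCL10 leads in HT1376 CT with IFNγ.

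The mix of the 3 CXCR3 ligands was compared between the treated lines as shares of their summed CPM per kb. CXCL10 made up 76.8% ± 2.53 (SD, n = 3) in HT1376 CT with IFNγ and 82.9% ± 4.88 in HT1376 FOXP3 KO with IFNγ, CXCL11 16.7% ± 2.37 and 12.5% ± 4.31, and CXCL9 6.52% ± 0.158 and 4.56% ± 1.88. The two-sided exact permutation p was 0.1 for CXCL10, 0.3 for CXCL11 and 0.3 for CXCL9 (adjusted over the 3 ligands, 0.3 each), and 0.1 is the smallest that 3 libraries against 3 can give. The summed level was 28.8, 117 and 98.7 CPM per kb in HT1376 CT with IFNγ and 15.1, 27.6 and 14.4 CPM per kb in HT1376 FOXP3 KO with IFNγ.

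Several receptors for these chemokines were higher in HT1376 FOXP3 KO. CXCR3 had 0 counts in all 12 libraries, where 3 counts, the upper limit for a count of 0, correspond to 0.0793 to 0.692 CPM. Of the 12 receptors listed, 9 had enough counts to compare the untreated lines, and HT1376 FOXP3 KO had 6 of them higher and 1 lower than HT1376 CT, with a median log2 fold change of 2.13 beside -0.021 over all genes. ACKR3, an atypical receptor that takes up CXCL11 and CXCL12, had 0 counts in the 6 HT1376 CT libraries and 5.48 to 6.68 CPM in the 6 HT1376 FOXP3 KO libraries (adjusted p = 4.78e-06 untreated and 2.33e-05 with IFNγ). CCR2, the receptor of CCL2, was at 0 to 0.0585 CPM in HT1376 CT and 1.79 to 4.67 CPM in HT1376 FOXP3 KO (adjusted p = 1.97e-05 and 0.000305). CCR10, a receptor of CCL28, was the lower one, at 0.234 to 0.635 CPM in untreated HT1376 CT and 0 counts in untreated HT1376 FOXP3 KO (adjusted p = 0.0159). With IFNγ, 0 of 5 receptors tested passed in HT1376 CT and 0 of 9 in HT1376 FOXP3 KO, and 1 passed as higher in HT1376 CT with the replicate block and the bias-adjusted deviance of edgeR.

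Of the 3 proteases that process these chemokines, DPP4, which trims CXCL9, CXCL10, CXCL11 and CCL22, was lower in HT1376 FOXP3 KO. It was at 1.11, 1.43 and 2.04 CPM in HT1376 CT and 0.0428, 0.178 and 0.403 CPM in HT1376 FOXP3 KO (log2 difference -2.90 ± 0.66, SE, adjusted p = 0.00644, and 0.0501 without replicate 13 of HT1376 CT). With IFNγ it was at 1.74, 4.85 and 4.64 CPM and at 0.201, 0.961 and 0.554 CPM (-2.71 ± 0.60, adjusted p = 0.00564). ADAM10 and ADAM17, the sheddases of CX3CL1 and CXCL16, differed between the untreated lines by -0.43 ± 0.13 (adjusted p = 0.0292) and 0.43 ± 0.11 (adjusted p = 0.0124) on the log2 scale. The ADAM10 call was lost without any 1 of the libraries except replicate 13 of HT1376 FOXP3 KO (adjusted p = 0.0689 to 0.143).

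The IFNγ signalling genes upstream of the CXCR3 ligands responded in both lines. Of the 16 listed, 11 were higher with IFNγ in HT1376 CT and 7 in HT1376 FOXP3 KO, and none was lower, beside 3.53% and 0.978% of all genes that were higher. Their median log2 fold changes were 1.497 and 0.71. IRF1, a transcription factor induced by IFNγ, rose from 57.0, 67.7 and 63.7 CPM to 871, 855 and 909 CPM in HT1376 CT and from 55.1, 45.3 and 52.6 CPM to 375, 370 and 389 CPM in HT1376 FOXP3 KO. With IFNγ, the log2 difference of HT1376 FOXP3 KO from HT1376 CT was -1.17 ± 0.097 for IRF1 (SE, adjusted p = 6.34e-06). Between the lines, 8 of 15 genes tested were lower in HT1376 FOXP3 KO untreated and 8 of 16 under IFNγ, and 2 and 1 were higher, where 18.2% and 15.7% of all genes were lower and 14% and 13.2% higher. JAK2, a kinase of the receptor, was at 51.1, 63.5 and 53.9 CPM in HT1376 CT with IFNγ and at 17.2, 15.8 and 16.96 CPM in HT1376 FOXP3 KO with IFNγ (-1.70 ± 0.15, adjusted p = 9.99e-06).

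Of 12 genes of the NF-κB pathway, which also acts on chemokine promoters, 9 were lower and 1 higher in untreated HT1376 FOXP3 KO, and 10 were lower and 0 higher under IFNγ, beside 18.2% lower and 14% higher of all genes untreated and 15.7% and 13.2% under IFNγ. The median log2 fold changes were -1.28 and -1.38. TNFAIP3, an NF-κB target that restrains the pathway, was at 615, 831 and 881 CPM in HT1376 CT with IFNγ and at 51.7, 99.9 and 71.4 CPM in HT1376 FOXP3 KO with IFNγ (log2 difference -3.34 ± 0.24, SE, adjusted p = 1.99e-06). With IFNγ, 3 of the 12 were higher in HT1376 CT and 1 in HT1376 FOXP3 KO, beside 3.53% and 0.978% of all genes, and 9 and 4 were higher with the replicate block and the bias-adjusted deviance. TNFAIP3 was among the 3 (log2 0.70, adjusted p = 0.0201), a call lost without replicate 11 or 12 of HT1376 CT or without replicate 12 or 13 of HT1376 CT with IFNγ (adjusted p = 0.0590 to 0.105).

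Other chemokines gave few values. Of 22 further T-cell and monocyte chemokines, 16 never exceeded 3 counts in a library, and 1 of the 3 tested in HT1376 CT was higher with IFNγ. This was CCL3, a ligand of CCR1, with 0, 0 and 3 counts untreated and 4, 14 and 18 counts with IFNγ (adjusted p = 0.0275), a call lost without any 1 of the libraries except replicate 11 with IFNγ (adjusted p = 0.0715 to 0.0944). Of 8 neutrophil-attracting chemokines, 5 were tested in HT1376 CT, and CXCL2 rose with IFNγ, from 1.05, 1.27 and 1.27 CPM to 3.97, 5.31 and 3.02 CPM (log2 1.75 ± 0.37, SE, adjusted p = 0.0159), a call lost without untreated replicate 11 or 13 (adjusted p = 0.0695 and 0.0662). Under IFNγ, CXCL2 and CXCL1 were the 2 of 4 tested that were lower in HT1376 FOXP3 KO (-2.42 ± 0.46, adjusted p = 0.00223, and -3.22 ± 0.88, adjusted p = 0.0181). The CXCL1 call was lost without replicate 13 of HT1376 CT with IFNγ or without replicate 11 or 13 of HT1376 FOXP3 KO with IFNγ (adjusted p = 0.0579 to 0.105).

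The genes whose pattern over the 12 libraries was nearest to the mean of the 3 CXCR3 ligands, by the root mean square difference of centered log2 CPM, were AC005515.1 (0.55), AC083837.1 (0.60), ZBP1 (0.63), WARS (0.64) and CTSS (0.67), among 19252 genes compared. Ranked by Pearson correlation instead, 1 of the 5 remained. CXCL16 was nearest to SLC37A1 (0.20), CCL5 to UBA7 (0.64), CCL22 to LGALS3BP (0.57), CCL28 to N4BP2L1 (0.63) and CX3CL1 to PTGES3P1 (0.93). Of the 3 nearest genes of each, the Pearson ranking shared 0 for CXCL16, CCL5 and CCL28, 1 for CCL22 and 2 for CX3CL1. The distance from CX3CL1 to its nearest gene was more than that of any other chemokine ranked, and CCL2 had too few counts to rank.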

How the data were processed

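RNA of both lines was sequenced after ribosomal RNA depletion. The authors aligned reads to GRCh38 (Ensembl 103) with STAR, version 2.7.11a in the submitters' processing notes, used Kraken to remove Mycoplasma reads, and deposited the raw counts that htseq-count gave for each gene in 12 libraries. The strand setting of the counting is not given in the sources used here. Groups follow the sample labels.

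Tests were run in edgeR 4.0.16 (R 4.3.3, quasi-likelihood fit with default settings, TMM) for genes whose counts summed to 10 or more over the 6 libraries of a comparison, or all 12 for the interaction, and genes were called at a Benjamini-Hochberg adjusted p under 0.05. CPM use TMM library sizes. Level limits for 0 counts use 3 counts per library. Positions and exon lengths come from GENCODE 44, and promoter windows from RefSeq (GRCh38.p14). The fits without a block, and the block with the bias-adjusted deviance, were tested on simulated counts. These held no replicate effect, and only genes with higher counts were changed in them. They did not test the replicate block alone or chemokines with low counts. Intervals and limits cover counting error only, and total counts of 4490684 to 39270042 per library set the precision for low chemokines.

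The 9 chemokines, the lists of related genes and the tests were chosen with earlier results of these data known. The genes named are the 9, FOXP3, genes of the lists and the nearest patterns, 5 for the CXCR3 ligands and 3 for each other chemokine with at least 10 counts in 3 libraries. CSF1R was set apart after its values were seen.

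Replicate numbers occur in every group. Over the genes tested, deviations of same-numbered libraries from their group means correlated at r = 0.153 to 0.169 within HT1376 CT and 0.197 to 0.291 within HT1376 FOXP3 KO, so the numbers were taken to pair libraries within a line. Alternatives were DESeq2 size factors, other filters, DESeq2 1.42.0, the bias-adjusted deviance, the block, 1 fit of all libraries, a log2 fold change over 1, and leaving out each library. Values of some genes of the lists are not reported here.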

Additional observations from a re-analysis of the deposited data

Results flagged for a closer look

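The response of IRF1 to IFNγ differed between the lines by the interaction over all 12 libraries, with a log2 difference of -0.93 ± 0.15 (SE, HT1376 FOXP3 KO minus HT1376 CT, edgeR adjusted p = 0.0171). The log2 rise was 3.83 ± 0.11 in HT1376 CT and 2.91 ± 0.11 in HT1376 FOXP3 KO, and the treated libraries of the lines did not overlap. The call was lost without any 1 of 8 of the 12 libraries (adjusted p = 0.0564 to 0.101), with values of -0.89 to -0.82, and when a log2 fold change over 1 was required.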

How the results depend on the processing

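Of 641 values of the 9 chemokines under the alternatives, 553 kept their direction and their side of the threshold, 34 lost a call, 48 gained one and 6 changed sign, all 6 on leaving out 1 library and none called. These were CXCL11 between the untreated lines (-0.36 without HT1376 FOXP3 KO replicate 13, highest 0.76) and the differences in IFNγ response of CX3CL1 (1.37 without HT1376 FOXP3 KO replicate 11, lowest -3.27) and CCL28 (0.04 to 0.56 without 1 of 4 libraries, lowest -0.55). CCL2, CX3CL1, CCL22 and CCL28 rest on few counts. Paralogs share sequence, and how reads that match several genes were treated is not given in the sources used here.

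With IFNγ in HT1376 CT, 1307 genes and 5 of the 9 chemokines passed. The genes were 679 with a log2 fold change over 1, 2248 without a filter, 4530 with the replicate block and 4102 when the bias-adjusted deviance was added to it, which called 8 chemokines, CCL2 included (adjusted p = 0.0373). In HT1376 FOXP3 KO, 237 genes and 4 chemokines passed, with 1334 and 1027 genes under these blocks and 8 chemokines under each. There, 7 chemokines passed without a filter, 7 with DESeq2 and 2 with at least 10 counts in 3 libraries, beside 1.04%, 1.42% and 1.34% of all genes tested. Between the untreated lines, 8135 genes passed, and 4944 with a log2 fold change over 1. Under IFNγ, 7046 genes passed, 4625 with a log2 fold change over 1. The 5 chemokines there became 9 with the replicate block and the bias-adjusted deviance together, where 8854 genes (36.3%) passed. Between the lines, same-numbered libraries correlated at r = 0.0489 to 0.144 over the genes tested, and at 0.161 to 0.393 over genes with at least 200 counts. Every pair was over 0.1 only with the second minimum, so whether the numbers pair libraries between the lines depends on a minimum chosen after the data were seen. With that minimum, libraries of different numbers reached 0.152 untreated and 0.211 under IFNγ. The second value exceeded the lowest same-numbered value under IFNγ, 0.179. Among the 9 chemokines, the replicate block changed the calls of CCL5 and CX3CL1 under IFNγ and of CCL28 untreated between the lines. For the interaction, 31 genes passed, 294 without a filter, 160 with DESeq2 and 1320 and 867 with the blocks, and 2 chemokines, CXCL10 and CXCL11, passed without a filter and with each block.

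Leaving out 1 library at a time gave 761 to 1201 genes and 3 to 6 chemokines with IFNγ in HT1376 CT, 161 to 207 and 1 to 3 in HT1376 FOXP3 KO, 5834 to 7736 and 1 to 2 between the untreated lines, 5031 to 6779 and 4 to 6 under IFNγ, and 15 to 33 and 0 for the interaction. The share of CXCL9 among the CXCR3 ligands differed between the treated lines by -2.98 to -1.13 percentage points, that of CXCL10 by 3.55 to 8.38 and that of CXCL11 by -6.60 to -2.42.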
